A study of Mus musculus with 20 samples.

Results

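The 10 genes described here are core genes and output genes of the circadian clock, the transcriptional feedback loop that gives cells a daily rhythm. They are Dbp, Tef, Nr1d1, Nr1d2, Per1, Per2, Per3, Cry1, Arntl (also called Bmal1) and Clock. They were taken from a list of clock genes because Dbp was among the largest rises in macrophages given the compound DSHN. The values that led to the choice are therefore those of DSHN against the solvent. All 10 were found among the 46318 genes of the deposited tables, and all 10 were among the 13307 genes with enough counts to be tested.

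The cells were mouse bone marrow-derived macrophages, which are grown in culture from marrow progenitors. They came from C57BL/6 female mice and carried no engineered allele that the labels name. The labels give no age and no time of day for the harvest, and name no step that sets the clocks of the cells to a common phase. All cultures were grown with recombinant murine M-CSF (named M-DSF in the labels), plated in 6-well dishes and kept for 24 h with 1 of 4 treatments. A first group received the solvent DMSO alone. The second received 50 µM DSHN, the third 1 µM GW3965, and the last both compounds at these doses. DSHN is named in the series as an agonist of NR0B2, an orphan nuclear receptor that holds other receptors in check. GW3965 activates LXR, a receptor for oxysterols that switches on cholesterol export. The design asks how each compound changes the transcriptome and whether the NR0B2 agonist changes the response to the LXR agonist. Each group had 5 libraries, which the labels call biological replicates without saying whether they came from separate mice. Each p-value therefore judges a difference between groups against the variation between these cultures, which may not be that between mice.

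The clock runs on opposing arms. CLOCK and BMAL1, the product of Arntl, pair up and activate genes that carry an E-box, among them the Per, Cry, Nr1d, Dbp and Tef genes. PER and CRY proteins then inhibit CLOCK and BMAL1, while the REV-ERB receptors made from Nr1d1 and Nr1d2 repress Arntl. DBP and TEF, transcription factors of the PAR bZIP family, carry the rhythm to other genes through a DNA element called the D-box. Macrophages have such a clock, and it is known for setting the daily timing of their inflammatory and phagocytic responses.

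The upstream regions of 5 members are printed here. Dbp is shown for the size of its rise, and the other 4 because they hold one of the elements through which clock factors act. A RefSeq table of the earlier mouse build GRCm38.p6 held promoters for 9 of the 10 genes, 14 in all, and the one missing was Per2. The 250 bases before each start were searched on both strands for the E-box CACGTG (its own reverse complement), for the D-box spelled TTATGTAA or TTATGCAA, and for the RORE, the element bound by REV-ERB and ROR receptors. Sequences run 5′ to 3′ up to the base before the start, and capitals mark an E-box or a D-box.

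Dbp, GRCm38.p6 chr7:45704997-45705246, plus strand: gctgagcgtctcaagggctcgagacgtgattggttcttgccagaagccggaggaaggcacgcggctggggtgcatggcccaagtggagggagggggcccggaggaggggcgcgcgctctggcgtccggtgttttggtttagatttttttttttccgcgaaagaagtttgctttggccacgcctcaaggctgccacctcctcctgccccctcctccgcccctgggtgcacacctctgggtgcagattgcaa
Tef, upstream start, GRCm38.p6 chr15:81802423-81802672, plus strand: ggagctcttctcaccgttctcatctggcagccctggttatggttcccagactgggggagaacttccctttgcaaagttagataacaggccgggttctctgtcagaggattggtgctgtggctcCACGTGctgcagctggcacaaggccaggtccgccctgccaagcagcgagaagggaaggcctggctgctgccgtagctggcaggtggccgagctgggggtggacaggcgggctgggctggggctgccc
Per1, upstream start, GRCm38.p6 chr11:69098699-69098948, plus strand: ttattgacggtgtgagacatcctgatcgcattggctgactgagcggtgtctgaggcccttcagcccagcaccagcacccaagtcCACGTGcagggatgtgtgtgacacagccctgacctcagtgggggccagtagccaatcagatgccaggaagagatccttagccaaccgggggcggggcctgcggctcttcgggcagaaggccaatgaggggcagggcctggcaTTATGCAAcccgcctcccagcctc
Per3, GRCm38.p6 chr4:151044666-151044915, minus strand: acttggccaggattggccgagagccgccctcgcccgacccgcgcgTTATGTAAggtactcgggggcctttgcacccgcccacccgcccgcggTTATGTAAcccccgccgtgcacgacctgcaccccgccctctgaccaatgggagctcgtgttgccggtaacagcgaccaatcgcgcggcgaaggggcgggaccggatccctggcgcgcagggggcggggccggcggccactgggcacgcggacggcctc
Cry1, GRCm38.p6 chr10:85185055-85185304, minus strand: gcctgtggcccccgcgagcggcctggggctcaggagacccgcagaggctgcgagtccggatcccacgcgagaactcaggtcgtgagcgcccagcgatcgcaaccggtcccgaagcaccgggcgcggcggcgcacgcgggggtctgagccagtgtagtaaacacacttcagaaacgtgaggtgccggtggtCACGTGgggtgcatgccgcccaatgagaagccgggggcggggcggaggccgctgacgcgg

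Per3 held 2 D-boxes, whose first bases lay 205 and 158 bases before the start. Per1 held an E-box 166 bases and a D-box 24 bases before its upstream start. An E-box stood 127 bases before the first start of Tef and 138 bases before the other, and 60 bases before the start of Cry1. The elements did not overlap each other. Among 32851 promoters of the table, 6.02% held this E-box, 1.5% held a D-box of either spelling and 0.332% held the RORE. The 250 bases of Dbp, Nr1d1, Nr1d2, Arntl and Clock held none of these letters, and no member searched matched the RORE. The RORE was searched only as a strict pattern ending in GGTCA, and no base after a start was searched. An element with other letters, or lying across or after a start, would be missed. The search therefore cannot tell whether Arntl or another member carries a RORE, and Per2 was not searched. A match is a description of the letters and no evidence of binding.

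Library totals ran from 16855029 to 23796561 counts. Levels are CPM values, a gene's counts relative to its library's total with TMM factors applied, and means carry the SD of 5 libraries. The 5 libraries of the combination stood apart from the other 15 in 2 technical measures. The first was a slope on log2 exon length, fitted per library to log2 level less the gene's mean over all 20 libraries. It was −0.124 to −0.0943 in the combination, against 0.00566 to 0.063 in the other 15. Such slopes compare libraries with each other, so their sign in 1 group depends on the other groups. Mitochondrial genes took 0.201% to 0.246% of the counts in the combination libraries, against 0.114% to 0.152%. The labels give no batch, so a technical source and the combined treatment cannot be told apart, and values corrected for exon length are given beside those of the combination. All 7 macrophage markers were present (summed level of 15710 to 19070 CPM over the libraries). Markers of B cells, T and NK cells and erythroid cells summed to at most 0.346 CPM in a library, those of neutrophils and dendritic cells to at most 1.35 and 2.17 CPM, and those of mast cells and basophils to at most 4.14 CPM. Markers of fibroblasts and stromal cells summed to 1188 to 2027 CPM, most of it Col1a1, which encodes a chain of type I collagen. The collagen gene Col3a1 had group means of 155 to 236 CPM. The other markers of that list were low, with group means of 4.13 to 5.56 CPM in Pdgfra and 0.235 to 0.392 CPM in Dcn. The sum therefore reflects collagen genes and is no measure of the number of stromal cells.

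Per kilobase of exon, the clock genes of the DMSO group fell into 3 tiers. The length used is that of all annotated exons of a gene (19362 bases in Arntl) and not of 1 transcript. The order of the genes therefore depends on the annotation as well as on their levels. Nr1d2 (8.57 ± 0.577 CPM per kb), Clock (8.56 ± 0.403) and Tef (7.92 ± 0.693) were at the top, and neighbours in that order overlapped over their libraries. Nr1d1 (2.77 ± 0.253), Cry1 (2.49 ± 0.115), Dbp (2.47 ± 0.312) and Per1 (2.37 ± 0.218) followed, again with overlapping neighbours. Arntl (1.00 ± 0.0467), Per2 (0.864 ± 0.126) and Per3 (0.734 ± 0.0970) were lowest. The tiers themselves did not overlap. In each treated group Dbp was the fourth of the 10 genes on this scale, at 6.30 ± 0.428 CPM per kb with DSHN, 6.09 ± 1.10 with GW3965 and 6.26 ± 0.721 with both. It did not overlap with Nr1d1, the fifth, in any of the 3 groups, and overlapped with Clock, the third, in the combination. Nr1d2 stood first and apart from Tef, the second, in all 3 treated groups.

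**Figure D1:**
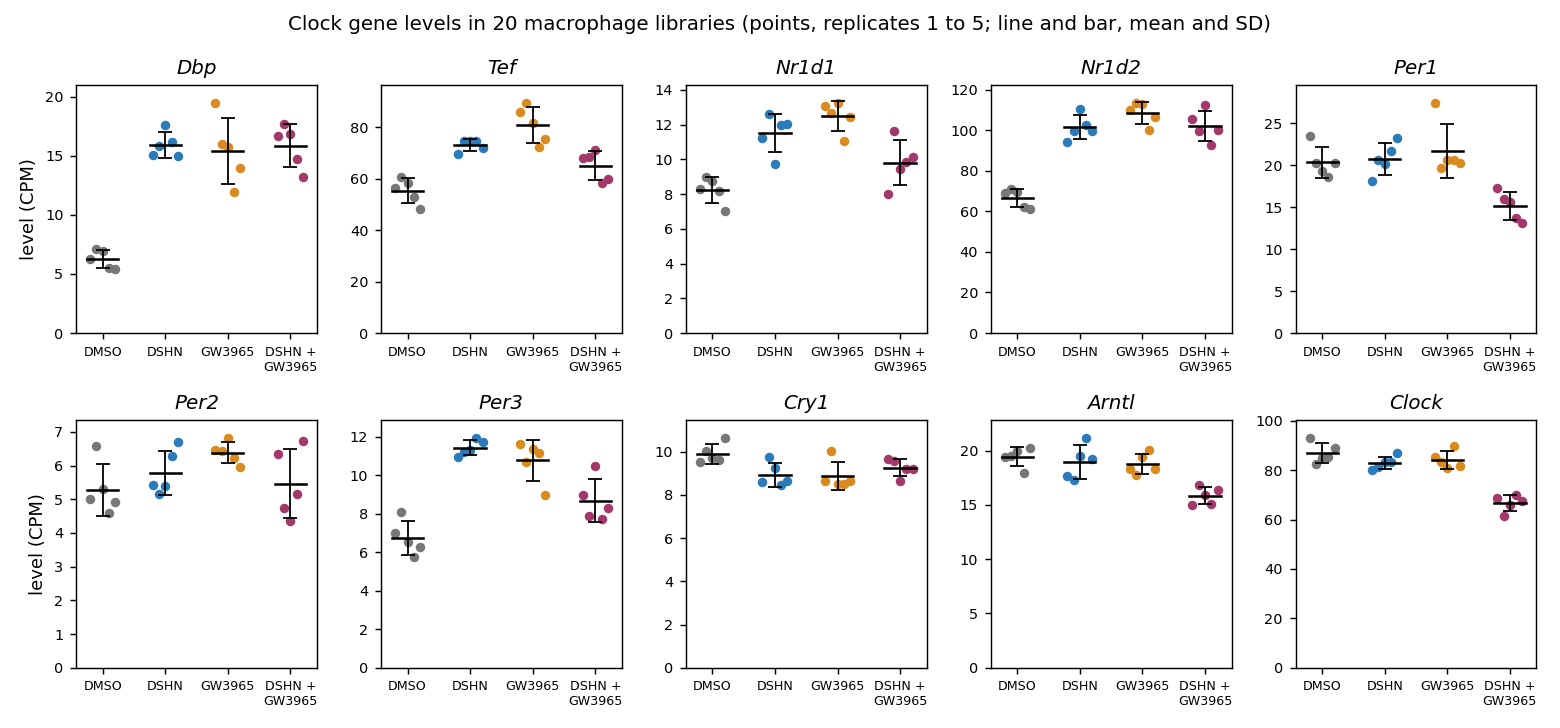
Level of each clock gene in every library (CPM, linear axis from 0) for the 4 treatments, with points for replicates 1 to 5 from left to right and the mean and SD of the 5 in black. All treated libraries lie above all DMSO libraries for Dbp and Nr1d2, whereas for Per1, Arntl and Clock the 5 combination libraries lie below all others.

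With DSHN alone, the contrast that led to the choice of these genes, the PAR bZIP genes Dbp and Tef, both REV-ERB genes and Per3 were higher than with DMSO. These values describe the choice and carry no test. Dbp was 2.54-fold higher and stood second in size among the rises of 10077 genes that reached a mean of 5 CPM in either group. Per3 was 1.69-fold higher (36th), Nr1d2 1.52-fold (74th), Nr1d1 1.39-fold (159th) and Tef 1.32-fold (226th). The other 5 lay between a log2 fold change of −0.15 in Cry1 and 0.12 in Per2, and their libraries overlapped with DMSO. Counted as higher means an edgeR adjusted p under 0.05 and a rise, which 14.1% of all tested genes met in this contrast. Because the contrast led to the choice, the 5 genes beside that share are no evidence of enrichment.

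With GW3965 alone, the output genes Dbp and Tef, the REV-ERB genes Nr1d1 and Nr1d2 and the period gene Per3 rose. None of the 10 genes was called lower, and the activators Arntl and Clock did not pass the test. The rises ran from 1.46-fold in Tef to 2.44-fold in Dbp, and for all 5 genes every GW3965 library lay above every DMSO library. Over all tested genes 23.6% were called higher and 23.0% lower in this comparison, and 16.6% were higher with no overlap between libraries. The median log2 fold change of the 10 genes was 0.41, beside 0.008 over all genes tested. The test was edgeR's quasi-likelihood test with Benjamini-Hochberg adjustment over all 13307 genes, called under 0.05, and this comparison uses the same DMSO libraries as the one that led to the choice. The 5 rises were called under each alternative. A correction for exon length added Per2 as a sixth, beside 24.7% of all genes called higher under it.

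With both compounds against DMSO, Dbp, Tef, Nr1d1, Nr1d2 and Per3 were called higher, and Per1, Arntl and Clock were called lower, beside 31.9% and 32.9% of all genes called higher and lower. Of these, Dbp and Nr1d2 were higher and Per1, Arntl and Clock lower with no overlap between libraries, beside 23.9% and 25.8% of all genes. The median of the 10 was 0.14, beside 0.010 over all genes tested, and it was 0.21 with the length correction. Under the length correction 4 genes were higher (Dbp, Tef, Nr1d2 and Per3), Clock alone was lower, and Nr1d1, Per1 and Arntl were no longer called. The background was then 28.8% higher and 29.3% lower. With genomic span added to that correction, Clock was not called and Per1 was. This comparison, too, uses the same DMSO libraries as the one that led to the choice.

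The comparison of the combination with GW3965 uses 10 libraries that took no part in the choice of the genes. Where DSHN was added to GW3965, no clock gene was called higher. Tef, Nr1d1, Per1, Per3, Arntl and Clock were lower, with folds from 0.841 in Arntl to 0.702 in Per1. Over all genes 28.3% were called higher and 29.5% lower, and the 6 falls among 10 are to be read against that share. In Tef, Per1, Arntl and Clock the libraries did not overlap, beside 22.6% of all genes that were lower in this way. Dbp, Nr1d2, Per2 and Cry1 did not pass the test. The median log2 fold change of the 10 was −0.28, beside 0.017 over all genes tested. With the length correction the median of the 10 was −0.068. Corrected for exon length, Nr1d1 and Per1 were still lower, Nr1d2 was higher, and the calls of Tef, Per3, Arntl and Clock were lost, beside 22.0% of all genes called higher and 25.1% lower. With a replicate block in the same corrected fit Tef and Clock were called lower, at −0.12 (edgeR adjusted p = 0.0114) and −0.089 (edgeR adjusted p = 0.0404).

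Where GW3965 was added to DSHN, Tef, Nr1d1, Per1, Per3, Arntl and Clock were called lower, with log2 fold changes from −0.17 in Tef to −0.45 in Per1, and higher in none, beside 29.5% and 28.6% of all genes. Corrected for exon length, Nr1d1 and Per1 were lower and Nr1d2 was higher, beside 24.1% and 22.1% of all genes. This comparison uses the DSHN libraries of the choosing contrast, and both comparisons use the same combination libraries.

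**Figure D2:**
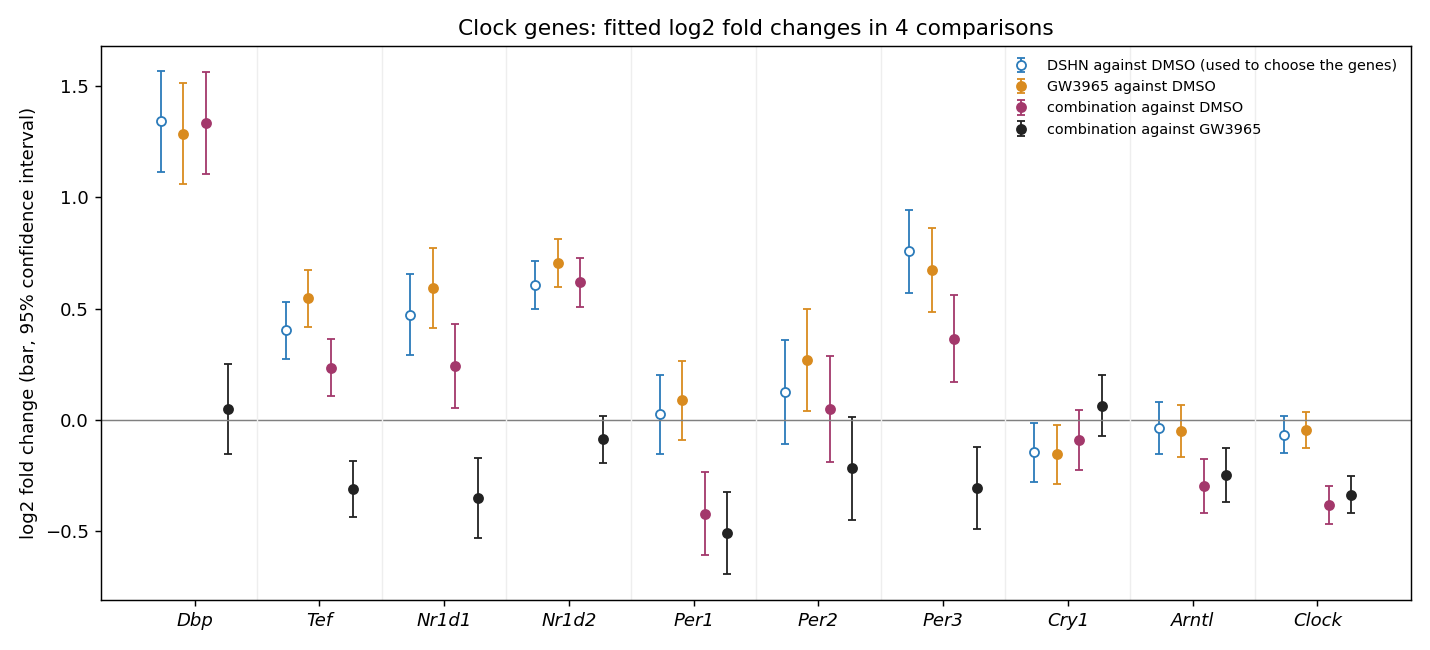
Fitted log2 fold change of each clock gene with its 95% confidence interval in 4 comparisons, with open symbols for the contrast that led to the choice of the genes. Dbp sits near 1.3 in all 3 comparisons with DMSO, while the black symbols for the combination against GW3965 lie below 0 for 8 of the 10 genes, all with TMM scaling and no length correction.

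Dbp encodes a PAR bZIP activator of output genes and is a direct target of CLOCK and BMAL1 (gene 13170, GRCm39 chr7:45354518-45359627, plus strand). Its level in DMSO replicates 1 to 5 was 6.26, 7.15, 6.91, 5.53 and 5.40 CPM. With DSHN it was 15.02, 15.8, 17.6, 16.2 and 14.97 CPM, and with GW3965 19.4, 15.96, 15.7, 11.9 and 14.00 CPM. In the combination it was 16.7, 17.7, 16.9, 14.8 and 13.2 CPM. The lowest treated library, GW3965 replicate 4, was still above the highest DMSO library, and the 3 treated groups overlapped with each other. The DMSO mean was 6.25 ± 0.789 CPM, beside 15.9 ± 1.08 under DSHN, 15.4 ± 2.78 under GW3965 and 15.8 ± 1.82 in the combination.

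The rise of Dbp with GW3965 had a log2 fold change of 1.29 (SE 0.11, edgeR adjusted p = 4.56e-10), and that with both compounds one of 1.34 (SE 0.11, edgeR adjusted p = 7.64e-11), or 1.24 (SE 0.11, edgeR adjusted p = 5.43e-10) with the length correction. Both of these comparisons use the DMSO libraries of the choosing contrast. Adding DSHN to GW3965 moved Dbp by 0.049 (SE 0.10) on the log2 scale, with a 95% confidence interval of −0.15 to 0.25 (edgeR adjusted p = 0.690). With the length correction this value had the opposite sign, at −0.048 (SE 0.10, edgeR adjusted p = 0.721), so no direction is given for it. DSHN without GW3965 had moved it by 1.34 (SE 0.11). The difference between these DSHN effects was −1.29 (SE 0.15), given as a description because it is built on the choosing contrast. The upper bound of the interval for the added DSHN lies below 1.06, the lower bound for GW3965 against DMSO. Both intervals use the GW3965 libraries, so this too is a description and no test.

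Dbp shares 539 of its 2529 exon bases (21.3%) with Sphk2, a sphingosine kinase gene on the other strand, and reads were counted without regard to strand. Sphk2 stood at 64.01 ± 2.62 CPM in DMSO libraries, at 60.9 ± 2.19 under GW3965 and at 65.1 ± 4.06 in the combination, and neither comparison with DMSO called it, although with the length correction the combination did, at 0.10 (edgeR adjusted p = 0.0472). Under DSHN it was 67.2 ± 3.38.

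Tef encodes the other PAR bZIP factor measured here (gene 21685, GRCm39 chr15:81686874-81711064, plus strand). In DMSO replicates 1 to 5 it stood at 56.4, 60.6, 58.4, 53.00 and 48.3 CPM. With DSHN the values were 69.8, 74.8, 74.9, 74.8 and 72.2 CPM and with GW3965 86.05, 89.4, 81.7, 72.3 and 75.4 CPM. In the combination they were 67.99, 68.3, 71.2, 58.2 and 60.1 CPM. Every DSHN and every GW3965 library was above all DMSO libraries, and every combination library was below all GW3965 libraries while overlapping with DMSO. Tef rose with GW3965 by 0.55 (SE 0.062, edgeR adjusted p = 5.89e-08) on the log2 scale and with both by 0.23 (SE 0.063, edgeR adjusted p = 0.00204), the latter at 0.44 (SE 0.060, edgeR adjusted p = 5.55e-07) with the length correction. It fell from GW3965 to the combination, with a log2 fold change of −0.31 (SE 0.062, edgeR adjusted p = 1.11e-04). With the length correction that change was −0.12 (SE 0.058, edgeR adjusted p = 0.0916), which is not called, and with genomic span added it was −0.22 (edgeR adjusted p = 0.00624), which is. Against DSHN alone its change of −0.17 (SE 0.062, edgeR adjusted p = 0.0226) lost its call when DSHN replicate 2, 3 or 4 or combination replicate 4 or 5 was left out, with adjusted p up to 0.0943 over the 20 edgeR fits. The same correction gave that change the opposite sign, at 0.022 (SE 0.059, edgeR adjusted p = 0.791).

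Nr1d1 and Nr1d2 encode REV-ERBα and REV-ERBβ, heme-binding nuclear receptors that act as repressors. Nr1d2 (gene 353187, GRCm39 chr14:4230549-4265640, plus strand) stood at 68.9, 70.8, 69.5, 62.3 and 61.01 CPM in the DMSO replicates. With DSHN it was at 94.3, 99.8, 111, 102 and 99.5 CPM, with GW3965 at 110.0, 113, 113, 99.9 and 107 CPM, and with both at 106, 99.7, 112, 92.5 and 100.2 CPM. All 15 treated libraries exceeded all 5 DMSO libraries, and the treated groups overlapped. The log2 fold change was 0.70 (SE 0.052, edgeR adjusted p = 2.90e-11) with GW3965 and 0.62 (SE 0.053, edgeR adjusted p = 1.20e-10) with both, the latter 0.84 (SE 0.050, edgeR adjusted p = 2.74e-13) with the length correction. From GW3965 to the combination it was −0.088 (SE 0.051, edgeR adjusted p = 0.148), with a 95% confidence interval of −0.19 to 0.018. The length correction turned that sign to 0.12 (SE 0.049, edgeR adjusted p = 0.0385), and with genomic span added it was 0.056 (edgeR adjusted p = 0.378), so a direction cannot be given for it.

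Nr1d1 (gene 217166, GRCm39 chr11:98658758-98666233, minus strand) was the less abundant of the pair. Its DMSO values were 8.29, 8.99, 8.74, 8.19 and 7.03 CPM and its DSHN values 11.2, 12.6, 9.73, 11.98 and 12.02 CPM. With GW3965 they were 13.1, 12.7, 13.2, 11.1 and 12.4 CPM and with both 8.02, 11.6, 9.45, 9.82 and 10.1 CPM. The GW3965 libraries all lay above DMSO, and the combination libraries overlapped with DMSO, with DSHN and with GW3965. Nr1d1 rose with GW3965 by 0.59 (SE 0.088, edgeR adjusted p = 3.88e-06) on the log2 scale. It fell from GW3965 to the combination, with a log2 fold change of −0.35 (SE 0.087, edgeR adjusted p = 0.00116), and its fall was kept with the length correction, at −0.40 (SE 0.086, edgeR adjusted p = 3.87e-04). Its difference between the combination and DMSO, 0.24 (SE 0.092, edgeR adjusted p = 0.0247), was not called without DMSO replicate 5 or combination replicate 2 (adjusted p up to 0.101 over the 20 edgeR fits), nor with the length correction, at 0.20 (SE 0.091, edgeR adjusted p = 0.0608). Its fall from DSHN to the combination, −0.23 (SE 0.088, edgeR adjusted p = 0.0251), was not called without DSHN replicate 2, 4 or 5 or combination replicate 1 or 3, with adjusted p up to 0.121, and was −0.28 (SE 0.087, edgeR adjusted p = 0.0104) with the length correction.

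Nr1d1 shares 263 of its 2980 exon bases (8.83%) with Thra, the thyroid hormone receptor α gene on the other strand. Thra also rose, from 25.6 ± 1.15 CPM with DMSO to 30.7 ± 2.36 with GW3965 (log2 fold change 0.26, edgeR adjusted p = 1.92e-04) and 33.4 ± 0.991 with both (0.38, edgeR adjusted p = 3.73e-07). From GW3965 to the combination Thra rose by 0.13 (edgeR adjusted p = 0.0376) while Nr1d1 fell. With the length correction the values were 0.57 (edgeR adjusted p = 1.26e-09) against DMSO and 0.29 (edgeR adjusted p = 5.62e-05) against GW3965 for Thra. The part of Thra in the counts of Nr1d1 was not tested.

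PER proteins and their CRY partners close the loop by inhibiting CLOCK and BMAL1. Per3 (gene 18628, GRCm39 chr4:151081475-151129167, minus strand) had DMSO values of 6.98, 8.10, 6.54, 5.74 and 6.27 CPM. With DSHN the values were 10.9, 11.2, 11.3, 11.9 and 11.7 CPM, with GW3965 11.6, 10.7, 11.4, 11.2 and 8.97 CPM, and with both 8.96, 7.87, 10.5, 7.72 and 8.29 CPM. All libraries with 1 compound were above all DMSO libraries, and the combination lay between, overlapping with DMSO and with GW3965. Its log2 fold change was 0.67 (SE 0.091, edgeR adjusted p = 1.08e-06) with GW3965 and 0.36 (SE 0.10, edgeR adjusted p = 0.00162) with both, the latter 0.61 (SE 0.090, edgeR adjusted p = 2.35e-06) with the length correction. From GW3965 to the combination Per3 fell, with a log2 fold change of −0.31 (SE 0.089, edgeR adjusted p = 0.00454), and with the length correction the change was −0.071 (SE 0.085, edgeR adjusted p = 0.517), no longer called.

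Per1, an immediate early gene of the clock that responds to hormones and serum (gene 18626, GRCm39 chr11:68985934-69000791, plus strand), did not follow Per3. Its DMSO values were 23.4, 20.2, 19.3, 18.5 and 20.2 CPM and its DSHN values 18.1, 20.6, 20.2, 21.7 and 23.2 CPM. With GW3965 they were 27.4, 19.7, 20.6, 20.6 and 20.2 CPM, of which replicate 1 stood far above the other 4. With both they were 17.2, 15.96, 15.6, 13.7 and 13.1 CPM, below every library of the other 3 groups. GW3965 alone moved it by 0.087 (SE 0.086, edgeR adjusted p = 0.432). Per1 fell from GW3965 to the combination, with a log2 fold change of −0.51 (SE 0.090, edgeR adjusted p = 2.78e-05), the largest fall among the 10 genes in that comparison, and without GW3965 replicate 1 the fall was −0.41. The length correction reduced it to −0.28 (SE 0.082, edgeR adjusted p = 0.00616). Against DMSO the combination gave −0.42 (SE 0.091, edgeR adjusted p = 2.15e-04), and −0.19 (SE 0.082, edgeR adjusted p = 0.0543) with the length correction.

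Per2 (gene 18627, GRCm39 chr1:91343699-91387072, minus strand) was the least counted member, with 81 to 139 counts in a library. Its DMSO libraries ranged over 4.59 to 6.58 CPM, those of DSHN over 5.16 to 6.69, of GW3965 over 5.97 to 6.81 and of the combination over 4.35 to 6.74, and each range overlapped with that of DMSO. Its log2 fold change with GW3965 was 0.27 (SE 0.11, edgeR adjusted p = 0.0516), just short of the threshold, and it was called higher with the length correction, at 0.29 (SE 0.11, edgeR adjusted p = 0.0267). No difference between the combination and DMSO was detected at this depth, with a 95% confidence interval of −0.19 to 0.29 for a log2 fold change of 0.049, which was 0.22 (SE 0.11, edgeR adjusted p = 0.0832) with the length correction. Against GW3965 the combination gave −0.22 (SE 0.11, edgeR adjusted p = 0.101), and −0.064 with the correction.

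Cry1, which encodes a strong repressor of the CLOCK and BMAL1 pair (gene 12952, GRCm39 chr10:84967564-85020918, minus strand), held a narrow band. DMSO libraries ranged over 9.51 to 10.6 CPM, DSHN libraries over 8.45 to 9.74, GW3965 libraries over 8.51 to 10.03 and the combination over 8.64 to 9.66. The groups overlapped in every comparison. Its log2 fold change with GW3965 was −0.16 (SE 0.065, edgeR adjusted p = 0.0515), the opposite sign to Dbp and Per3, and it passed the threshold in 13 of the 20 fits that left out 1 library. With both compounds it was −0.093 (SE 0.066, edgeR adjusted p = 0.221) against DMSO and 0.063 (SE 0.067, edgeR adjusted p = 0.436) against GW3965, and with the length correction −0.040 and 0.094, none of them called.

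Arntl and Clock encode the activator pair. Arntl (gene 11865, GRCm39 chr7:112777820-112913333, plus strand) had DMSO values of 19.5, 19.6, 20.00, 17.9 and 20.3 CPM and DSHN values of 17.6, 17.3, 19.5, 21.2 and 19.3 CPM. With GW3965 the values were 18.3, 17.7, 19.4, 20.1 and 18.3 CPM and with both 14.96, 16.8, 15.9, 15.1 and 16.4 CPM. The 3 groups without the combination overlapped, and every combination library was below all 15 others. GW3965 alone moved Arntl by −0.049 (SE 0.057) on the log2 scale, with a 95% confidence interval of −0.17 to 0.068.

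Clock (gene 12753, GRCm39 chr5:76357715-76452675, minus strand) was the most counted of the activators. Its DMSO values were 92.98, 82.5, 84.8, 85.4 and 88.9 CPM and its DSHN values 80.1, 81.4, 83.3, 83.2 and 86.8 CPM. With GW3965 they were 85.2, 83.1, 81.02, 89.9 and 81.5 CPM and with both 68.5, 61.3, 65.8, 69.9 and 67.5 CPM. As with Arntl, the combination libraries alone stood apart, below the rest. The change with GW3965 was −0.046 (SE 0.040), with a 95% confidence interval of −0.13 to 0.036.

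Against GW3965 the combination had a log2 fold change of −0.25 (SE 0.059, edgeR adjusted p = 7.84e-04) in Arntl and −0.34 (SE 0.041, edgeR adjusted p = 1.12e-07) in Clock. Arntl has the longest exon sequence of the 10 genes, 19362 bases, and Clock the next longest, 10151. Corrected for length, Arntl stood at −0.0070 (SE 0.059, edgeR adjusted p = 0.934) and Clock at −0.088 (SE 0.037, edgeR adjusted p = 0.0538), and neither was called. With genomic span added Arntl was at 0.022 (edgeR adjusted p = 0.784) and Clock at −0.043 (edgeR adjusted p = 0.377). Against DMSO, Clock was called with the length correction, at −0.13 (SE 0.037, edgeR adjusted p = 0.00296), and Arntl was not, at −0.092 (SE 0.059, edgeR adjusted p = 0.186).

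**Figure D3:**
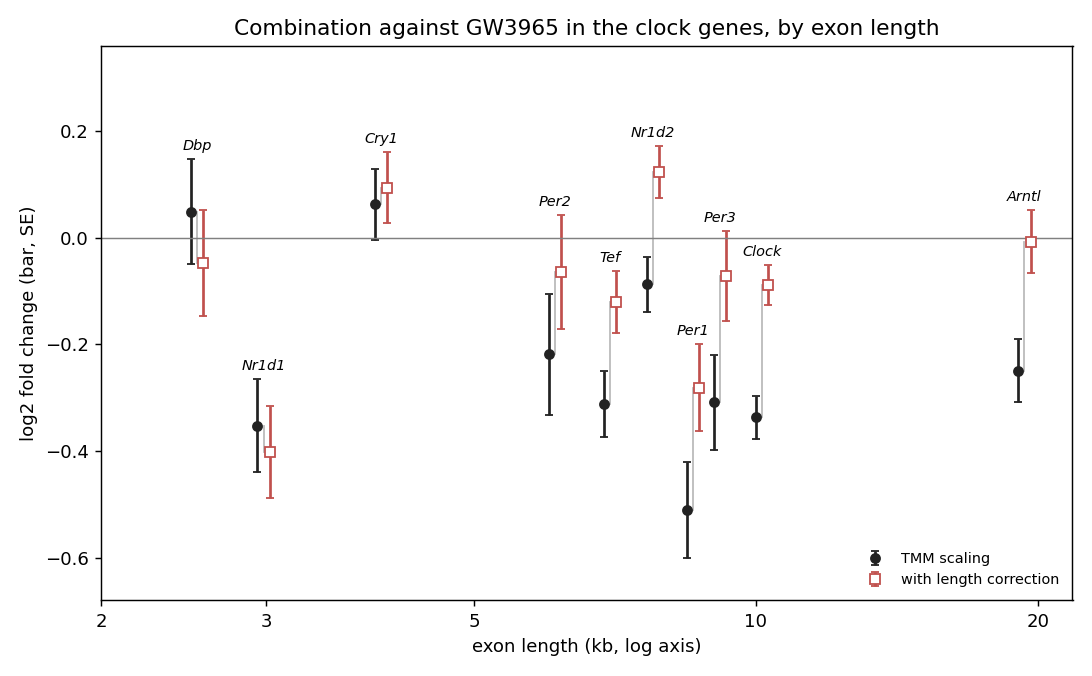
Log2 fold change of the combination against GW3965 (with SE) for each clock gene, by exon length on a log axis, with TMM scaling (filled) and with the exon length correction (open). The 2 shortest, Dbp and Nr1d1, moved by at most 0.10, and the 6 longest rose by 0.19 to 0.25 towards or past 0.

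The counts of called genes in the lists that follow stand beside 23.6% of all genes called higher and 23.0% lower with GW3965, and 28.3% higher and 29.5% lower from GW3965 to the combination (22.0% and 25.1% with the length correction). The macrophage and stromal markers moved in the latter comparison. In it, 5 of 7 macrophage markers were called lower and 1 higher, and 6 lower and none higher with the length correction, since Lyz2, the lysozyme gene, named after its values were seen, went from 0.12 (called higher) to −0.19 (called lower). Of 3 tested stromal markers (Col1a1, Col3a1 and Pdgfra) 3 were called lower, and 2 with the correction. The stromal list summed to 1524 to 2027 CPM with GW3965 and 1188 to 1429 CPM with both, most of it Col1a1. The macrophage markers summed to 16060 to 18170 CPM with GW3965 and 15970 to 17590 CPM with both, and no marker of either list was at 0 in a group. From DMSO to GW3965, 3 macrophage markers were higher and 1 lower, and 1 stromal marker was higher. Their part in the clock gene results was not tested. In bulk RNA, fewer cells of a type and less RNA per cell cannot be told apart.

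Of the other activators and ROR receptors, 3 of 5 were tested and 1 was called, Rora, whose product activates Arntl at the same element that REV-ERB represses. Rora rose with GW3965 from 32.4 ± 3.50 to 51.03 ± 4.68 CPM, a log2 fold change of 0.65 (SE 0.075, edgeR adjusted p = 7.30e-08), and fell again in the combination to 34.4 ± 2.45 CPM, which was −0.56 (SE 0.075, edgeR adjusted p = 4.73e-07) against GW3965 and −0.53 (SE 0.11, edgeR adjusted p = 2.37e-04) with the length correction. The range of its libraries in the combination lay below that with GW3965.

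Among 7 other repressors, all tested, 3 rose and 2 fell with GW3965, and 3 rose and 1 fell from GW3965 to the combination, with the same counts after the length correction. Bhlhe41, an E-box repressor, stood at 67.2 ± 3.45 CPM with DMSO, 75.2 ± 2.30 with GW3965 and 104 ± 2.32 with both, and rose by 0.47 (SE 0.039, edgeR adjusted p = 2.12e-10) from GW3965 to the combination (0.63 corrected for length). Its relative Bhlhe40 moved the other way in that comparison, by −0.36 (SE 0.051, edgeR adjusted p = 1.31e-06) or −0.40 corrected, after a rise of 0.34 (SE 0.051, edgeR adjusted p = 5.05e-06) with GW3965. The replication fork genes Timeless, a relative of fly clock genes, and Tipin fell with GW3965, with log2 fold changes of −0.98 (SE 0.081, edgeR adjusted p = 2.29e-10) and −0.69 (SE 0.094, edgeR adjusted p = 1.06e-06). They were higher in the combination than with GW3965, by 0.31 (SE 0.086, edgeR adjusted p = 0.00332) and 0.65 (SE 0.10, edgeR adjusted p = 2.05e-06). Corrected for length these were 0.53 (SE 0.092, edgeR adjusted p = 3.43e-05) and 0.52 (SE 0.092, edgeR adjusted p = 3.99e-05). Ciart, a CLOCK and BMAL1 repressor named after its values were seen, was low, at 1.07 ± 0.180 CPM with DMSO and 1.85 ± 0.290 with both, a log2 fold change of 0.78 (SE 0.17, edgeR adjusted p = 2.86e-04) and of 0.67 (SE 0.17, edgeR adjusted p = 0.00143) with the length correction.

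Of 11 genes for enzymes that modify clock proteins, 1 was higher and 2 were lower with GW3965. Between GW3965 and the combination 5 were higher and 3 lower, and 7 and 2 with the length correction. Gsk3b, a kinase acting on several clock proteins, fell, with a log2 fold change of −0.44 (SE 0.037, edgeR adjusted p = 2.66e-10), as did Ube3a, a ubiquitin ligase, at −0.50 (SE 0.042, edgeR adjusted p = 2.98e-10). With the length correction these were −0.21 (SE 0.029, edgeR adjusted p = 1.43e-06) and −0.24 (SE 0.035, edgeR adjusted p = 2.36e-06). Csnk1e, the kinase that marks PER proteins for degradation, rose by 0.37 (SE 0.048, edgeR adjusted p = 2.72e-07). Csnk2a1, a catalytic subunit of casein kinase 2, rose by 0.32 (SE 0.038, edgeR adjusted p = 7.68e-08) and the phosphatase subunit gene Ppp1cb by 0.084 (SE 0.034, edgeR adjusted p = 0.0353). Corrected for length, the rises were 0.58 in Csnk1e, 0.58 in Csnk2a1 and 0.13 in Ppp1cb, all still called. Btrc, a ubiquitin ligase adaptor for PER proteins, was −0.24 (SE 0.070, edgeR adjusted p = 0.00444) and had the opposite sign with the length correction, at 0.017.

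Of 8 other output genes of the clock 7 were tested, and with GW3965 1 was higher and 4 were lower. The 1 that rose was Nampt, an E-box target whose enzyme salvages NAD, by 0.34 (SE 0.038, edgeR adjusted p = 5.03e-08). Noct, a rhythmic phosphatase gene named after its values were seen, fell from 13.6 ± 2.92 to 6.73 ± 1.15 CPM (edgeR adjusted p = 1.22e-06). Wee1, the mitotic kinase gene that CLOCK and BMAL1 activate, was also named after its values were seen and fell, with a log2 fold change of −0.43 (SE 0.051, edgeR adjusted p = 1.04e-07). Between GW3965 and the combination 2 of the 7 fell and none rose, and with the length correction 1 fell and 1 rose. The falls were Por, which encodes the electron donor of cytochrome P450 enzymes, at −0.49 (SE 0.053, edgeR adjusted p = 1.95e-08) (−0.53 corrected), and Nampt, at −0.11 (SE 0.038, edgeR adjusted p = 0.0142), whose call was lost with the length correction, at −0.043. Usp2, a deubiquitinase gene named after its values were seen, was 0.15 (SE 0.11, edgeR adjusted p = 0.264) and was called higher with the correction, at 0.32 (SE 0.12, edgeR adjusted p = 0.0255). Hlf, the remaining PAR bZIP gene, had at most 6 counts in a library and was not tested.

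Of 7 genes reported as targets of REV-ERB repression in macrophages, 6 were tested, and with GW3965 4 were lower and none higher, beside 23.0% and 23.6% of all genes. Cx3cr1, the fractalkine receptor gene, fell from 374 ± 19.2 to 120.0 ± 12.1 CPM, a log2 fold change of −1.64 (SE 0.057, edgeR adjusted p = 2.65e-18), with no overlap between libraries. Ccl2, a monocyte attractant named after its values were seen, fell from 79.7 ± 30.7 to 17.3 ± 8.04 CPM (−2.18 (SE 0.25, edgeR adjusted p = 7.71e-08)). From GW3965 to the combination 2 of the 6 rose and none fell, with or without the length correction. Cx3cr1 rose by 0.17 (SE 0.057, edgeR adjusted p = 0.0148) and the inflammasome cytokine gene Il18 by 0.29 (SE 0.078, edgeR adjusted p = 0.00232), and corrected for length by 0.18 and 0.20. The median log2 fold change of the 6 was −0.71 with GW3965, beside 0.008 over all genes, and whether REV-ERB took part was not tested.

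Genes induced with Per1 by hormones or serum were counted because Per1 responds to the same signals. Of 6 glucocorticoid response genes, 2 rose and 3 fell with GW3965, and 2 rose and 1 fell from GW3965 to the combination, with the same counts after the length correction. Klf9, a repressor and glucocorticoid target, rose by 0.55 (SE 0.058, edgeR adjusted p = 1.06e-08) (0.61 corrected) and the phosphatase gene Dusp1 by 0.27 (SE 0.077, edgeR adjusted p = 0.00354) in the latter comparison, in which Per1 fell. Dusp1 was 0.10 (SE 0.079, edgeR adjusted p = 0.299) with the length correction. Sgk1, a kinase of ion transport, fell, with a log2 fold change of −0.16 (SE 0.037, edgeR adjusted p = 6.77e-04) (−0.11 corrected for length), and had the opposite sign with genomic span added to the length correction, at 0.058. With GW3965 alone the log2 fold change of Dusp1 was −1.14 (SE 0.073, edgeR adjusted p = 1.43e-12).

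Of 7 cAMP and serum response genes, 1 rose and 5 fell with GW3965, and 2 rose and 1 fell from GW3965 to the combination, counts that the length correction left as they were. Fos, the immediate early AP-1 gene, fell from 54.9 ± 9.22 CPM with DMSO to 9.62 ± 1.31 with GW3965 (−2.50 (SE 0.10, edgeR adjusted p = 1.14e-16)) and stood at 14.01 ± 1.78 with both (0.54 (SE 0.12, edgeR adjusted p = 3.58e-04) against GW3965, and 0.39 corrected for length). Crem, a cAMP response modulator, rose by 0.28 (SE 0.068, edgeR adjusted p = 0.00113) in the last comparison, and Sik1, a salt-inducible kinase, fell, at −0.30 (SE 0.088, edgeR adjusted p = 0.00520). Corrected for length, Crem was at 0.51 (SE 0.072, edgeR adjusted p = 1.94e-06) and Sik1 at −0.23 (SE 0.086, edgeR adjusted p = 0.0306).

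**Figure D4:**
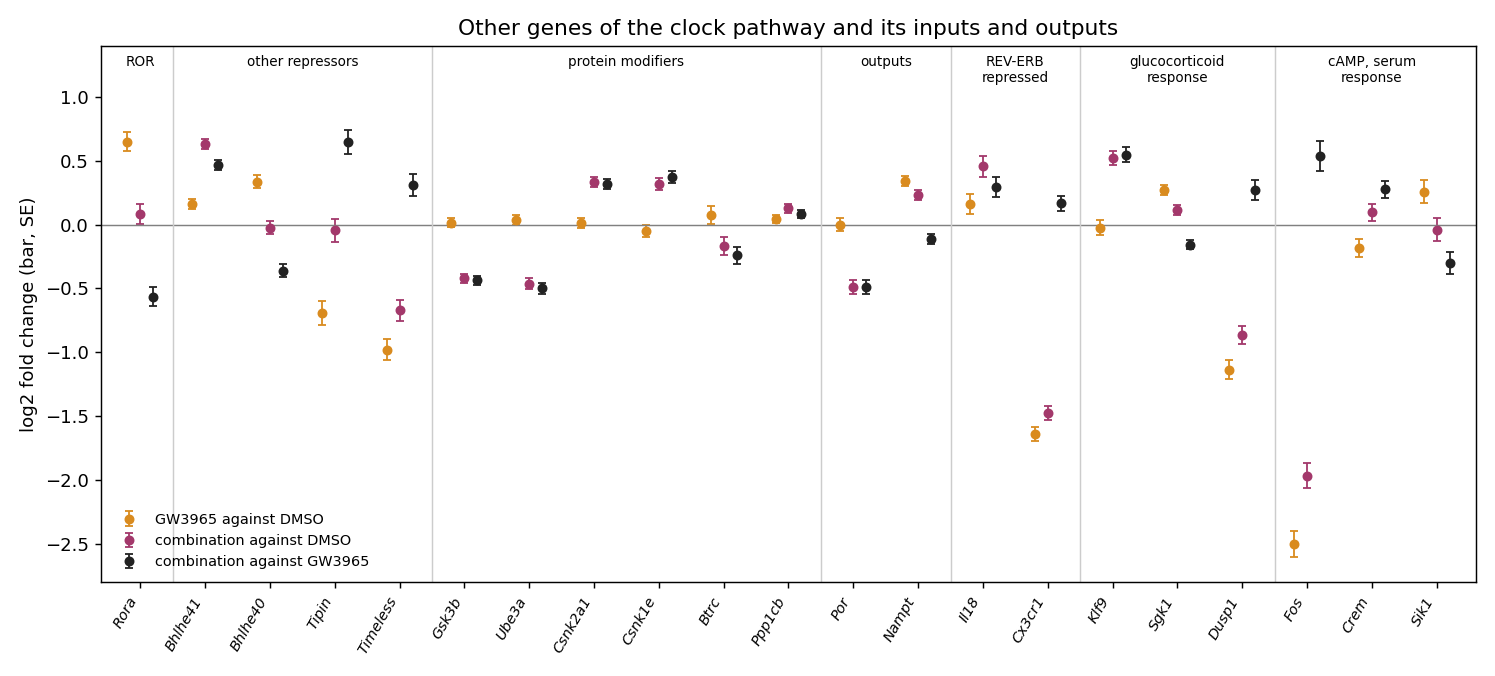
Log2 fold change (with SE) of other genes of the clock pathway, grouped by role, in 3 comparisons. Among the genes plotted Fos, Cx3cr1 and Dusp1 have the largest falls against DMSO. Values are with TMM scaling and no length correction.

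Over the 20 libraries, the genes whose log2 CPM was most like that of Dbp among 9797 genes compared were Lamp1 (Pearson r = 0.977), Sqstm1 (0.976), Fcgr3 (0.974), Rxra (0.971) and Creg1 (0.969). Like Dbp, each had 1 low group and 3 high ones. Lamp1, a lysosomal membrane protein gene, was at 1838 ± 56.8 CPM in DMSO libraries, 2347 ± 59.9 under DSHN, 2465 ± 114 under GW3965 and 2423 ± 74.4 in the combination. The genes most like Arntl were Taf1 (0.922), Zfp518b (0.901), Exoc1 (0.891), Lars (0.888) and Rad50 (0.887), all lowest in the combination. Taf1 was at 91.9 ± 2.28 CPM with DMSO and 74.0 ± 2.82 with both. These are descriptions over libraries that share 4 group means and the same depth, and within a group 5 libraries are too few for a correlation. The levels compared were not corrected for exon length. With that correction the log2 fold change of Arntl from GW3965 to the combination was −0.0070.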

How the data were processed

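Stranded mRNA libraries of 20 cultures were aligned with STAR and counted with featureCounts 2.0.0 on RefSeq genes of GRCm39, per the file headers. Each deposited file holds unnormalized counts per gene, and the commands set no strand option. The authors' coordinates are used as they stand. The files name genes by NCBI GeneID. A RefSeq table named 44749 of 46318. Genes kept by filterByExpr (13307) were scaled by TMM and tested by quasi-likelihood in edgeR 4.0.16 (1 mean per group, all 20 libraries), with Benjamini-Hochberg adjustment per comparison. The members and lists were chosen with earlier results of these data known. Beside the members, each list names up to 6 genes called in the combination against GW3965 by smallest adjusted p, and the 5 genes most like Dbp and Arntl with a mean of at least 5 CPM (log2 CPM, prior count 2). Alternatives were DESeq2 1.42.0, its size factors, total counts, no filter, a filter at 100 counts and 1 CPM in 5 libraries, limma 3.58.1 voom, only the libraries compared, a replicate block, a length correction (per-library offsets fitted to log2 exon length with a 5 df natural spline), and leaving out each library. A version with genomic span was added after seeing the data. The test was also run on simulated counts with and without a trend with exon length, and its outcome there is not reported here. The biological coefficient of variation was 0.0536.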

Additional observations from a re-analysis of the deposited data

Results flagged for a closer look

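In 2 of the 40 sets of 5 libraries (10 genes in 4 groups), 1 library stood apart from the other 4 by more than Dixon's 95% critical value of 0.71, and chance alone gives this in about 1 set in 20. Per1 stood at 27.35 CPM in GW3965 replicate 1, beside 19.66 to 20.64 CPM in the other 4, a gap of 0.873 of the whole range. Cry1 stood at 10.03 CPM in GW3965 replicate 2, beside 8.513 to 8.65 CPM in the others, a gap of 0.91 of the range. Without GW3965 replicate 2, Cry1 was called lower with GW3965 than with DMSO. That is not particular to this library, since 13 of the 20 fits that left out 1 library gave the call. Among them were fits without a library of the DSHN or combination groups, and the full fit was at the threshold (edgeR adjusted p = 0.0515).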

How the results depend on the processing

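Other scaling, filters, tools and fits to only the libraries compared kept the calls of all 10 genes in the comparisons of the combination. In GW3965 against DMSO they added calls of Cry1, Per2 or Clock, giving 5 to 7 genes. With the length correction the genes called went from 8 to 5 in the combination against DMSO, from 6 to 3 against GW3965 and from 6 to 3 against DSHN. With genomic span added they were 5 against DMSO, 3 against GW3965 and 4 against DSHN. Leaving out 1 library gave 5 to 7 genes called in GW3965 against DMSO, 7 to 8 in the combination against DMSO, 6 to 7 against GW3965 and 4 to 6 against DSHN.

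Log2 fold changes of named genes that were called in at least 1 fit and changed sign did so under the length correction. In the combination against DSHN these were Tef (0.022, and 0.019 with the replicate block) and Timeless (0.012 and 0.0089), and in the combination against GW3965 Nr1d2 (0.12 and 0.12). Btrc changed sign against DMSO (0.087, 0.087 with the block and 0.19 with genomic span), GW3965 (0.017, 0.014 and 0.12) and DSHN (0.071, 0.070 and 0.16). Lyz2 did so against DMSO (−0.15, −0.15 with the block and −0.17 with span) and GW3965 (−0.19, −0.19 and −0.21). With genomic span, Arntl (0.022) and Sgk1 (0.058) changed sign against GW3965. Among clock genes called in neither fit, the sign also changed for Dbp against GW3965 (−0.048, and −0.089 with span), Per2 against DSHN (0.083 and 0.076) and, with span alone, Cry1 against DMSO (0.028). The cause of the length trend was not tested.

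By the rule that every same-numbered pair correlate above 0.1, the replicate numbers were not taken as pairs. Of 30 same-numbered pairs, 10 had correlated deviations above 0.1 (median 0.040, lowest −0.205, against a median of −0.0092 for other pairs). Among the 5 numbers, 13 of 20 libraries correlated best with their own. This is a hint of pairing from the data and not the design, and the main fits do not use it. The replicate block changed no call of the 10 genes in the comparisons of the combination (6 genes called against GW3965), added Cry1 (6 genes) with GW3965, and with the length correction gave 6, 5 and 3 genes for the combination against DMSO, GW3965 and DSHN, with Per1 called against DMSO and Tef and Clock against GW3965, which the length correction alone did not call. Depth limits Per2 most, at 81 to 139 counts in a library.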
